A study of Mus musculus with 6 samples.

Results

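The Rab GTPases are small membrane-bound proteins, and the results below describe where Arid3a peaks lay at their genes in mouse vascular smooth muscle cells. The members were the protein-coding mouse genes named Rab, a number and at most 1 letter from a to d, which gave 59 of 21883 protein-coding genes. For each, every peak of 6 peak lists that touched the gene body or the 10 kb on either side was taken. Overlapping peaks (1 bp or more) of different libraries were joined to 1 region, and 246 of 79295 regions fell into a Rab window. Because peak presence chose the regions, presence is described and not tested.

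The assay was CUT&Tag, in which an antibody, here against Arid3a, directs a transposase to a chromatin protein so that the DNA beside it is cut out and sequenced. Arid3a is a transcription factor of the ARID family that binds AT-rich DNA. It was run on purchased primary mouse vascular smooth muscle cells, the contractile cells of the vessel wall, with 10000 cells per assay. In 3 libraries the cells were labelled as negative control, and in 3 libraries as given si-Arid3a#1, si-Arid3a#2 or si-Arid3a#3, so that each siRNA number had 1 library. No strain, age or sex of the mice is given in the labels. The protocol text describes angiotensin II for an aneurysm model together with untreated control cells, without saying which libraries were exposed. Whether each library had its own culture is not stated, so p-values reflect how these libraries vary, and that variation may be technical. The peak names inside all 6 lists named the opposite group, with the number unchanged. Groups are therefore called NC-labelled and siRNA-labelled, and every direction below rests on the labels.

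A Rab protein cycles between an active form bound to GTP on a membrane and an inactive form bound to GDP. Exchange factors switch it on, GTPase-activating proteins switch it off, and effectors read the active form to tether, move or fuse vesicles. Different Rab proteins mark different compartments, from the Golgi to endosomes, lysosomes and secretory vesicles. In smooth muscle, as in other cells, this traffic carries receptors, integrins and matrix proteins to and from the surface.

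The 6 lists held 43834 to 51682 peaks. Total reads were not used here. The fragments per base of background, solved from the deposited columns, ran from 0.621 to 0.673 for NC-labelled libraries and from 0.475 to 0.538 for siRNA-labelled ones, a value that scales with both depth and fragment length. Of the base pairs covered by either list of a pair, pairs of NC-labelled libraries shared 59.9% to 61.4%. The share was 56.2% to 57.0% for pairs of siRNA-labelled libraries and 55.7% to 58.4% for pairs across the labels. Of the smooth muscle marker genes, 6 of 6 (Acta2, Tagln, Myh11, Cnn1, Smtn and Lmod1) had a peak in every library, as did 4 of 4 fibroblast, 3 of 5 endothelial, 2 of 4 macrophage and 2 of 4 epithelial markers. Ptprc and Adgre1 of macrophages and Epcam of epithelium had no peak in any library. Over all protein-coding genes, 64.0% had a peak in every library and 24.5% in none. A peak is not a transcript level, so the lists do not show how much Arid3a or any Rab gene was expressed.

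Sequences at the starts of a few Rab genes show what DNA lay at or beside these peaks. They are RefSeq sequences on GRCm38.p6 (the assembly also named mm10), 250 bases before to 50 after the start, read along the gene's own strand. All genes printed here lie on the minus strand. Capitals mark ATTAAA or ATCAAA on either strand, which therefore also appear as TTTAAT or TTTGAT. Rab5c (chr11:100738166-100738465), Rab5b (chr10:128696219-128696518) and Rab11b (chr17:33760437-33760736) had some of the highest-ranked start peaks by −log10 q. Rab14 (chr2:35201071-35201370) had a start peak in 6 libraries and held such a match. Rab39b (chrX:75578182-75578481) was the most AT-rich of all the Rab starts, and Rab9b (chrX:136868507-136868806) had no peak at all.
Rab5c: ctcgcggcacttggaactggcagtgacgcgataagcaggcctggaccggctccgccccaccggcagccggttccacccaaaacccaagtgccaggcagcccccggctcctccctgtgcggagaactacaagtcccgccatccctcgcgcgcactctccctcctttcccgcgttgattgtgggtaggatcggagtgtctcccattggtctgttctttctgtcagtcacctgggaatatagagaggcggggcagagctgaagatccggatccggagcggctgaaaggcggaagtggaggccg
Rab5b: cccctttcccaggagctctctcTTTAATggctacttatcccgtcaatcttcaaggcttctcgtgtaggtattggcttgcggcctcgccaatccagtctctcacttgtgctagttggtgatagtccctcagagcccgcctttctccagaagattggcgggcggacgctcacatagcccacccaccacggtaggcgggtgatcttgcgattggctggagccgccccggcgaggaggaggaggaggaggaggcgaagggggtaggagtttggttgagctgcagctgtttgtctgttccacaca
Rab11b: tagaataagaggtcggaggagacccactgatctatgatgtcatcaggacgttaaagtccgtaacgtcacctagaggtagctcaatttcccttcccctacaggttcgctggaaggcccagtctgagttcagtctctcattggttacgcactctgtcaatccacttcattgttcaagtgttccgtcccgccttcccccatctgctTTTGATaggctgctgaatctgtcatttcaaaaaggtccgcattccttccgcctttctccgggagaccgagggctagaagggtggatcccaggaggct
Rab14: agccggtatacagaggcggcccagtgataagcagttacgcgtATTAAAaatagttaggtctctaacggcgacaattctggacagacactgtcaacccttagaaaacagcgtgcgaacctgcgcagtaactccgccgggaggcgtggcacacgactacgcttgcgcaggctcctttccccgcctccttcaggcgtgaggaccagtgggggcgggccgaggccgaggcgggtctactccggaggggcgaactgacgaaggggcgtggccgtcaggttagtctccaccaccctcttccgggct
Rab39b: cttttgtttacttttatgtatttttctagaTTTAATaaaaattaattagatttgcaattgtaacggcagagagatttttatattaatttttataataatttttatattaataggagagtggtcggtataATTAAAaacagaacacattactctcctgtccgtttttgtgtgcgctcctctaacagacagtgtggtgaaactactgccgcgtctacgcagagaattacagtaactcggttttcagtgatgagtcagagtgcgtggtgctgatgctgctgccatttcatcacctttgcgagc
Rab9b: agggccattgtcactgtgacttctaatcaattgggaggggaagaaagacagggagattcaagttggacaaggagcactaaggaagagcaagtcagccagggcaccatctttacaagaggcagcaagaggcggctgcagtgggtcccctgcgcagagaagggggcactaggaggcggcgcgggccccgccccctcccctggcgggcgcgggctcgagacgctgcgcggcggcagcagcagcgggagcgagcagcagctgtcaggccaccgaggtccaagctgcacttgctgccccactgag

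Rab genes with a peak in every library numbered 54 of 59 (91.5%), where 64.0% of all protein-coding genes had one by the same rule. The Rab windows were longer, with a median of 43.2 kb against 37.2 kb. One gene, Rab9b, had no peak in any library, against 24.5% of all genes. Rab9b is a close relative of Rab9, which returns receptors from late endosomes to the Golgi, and Rab9 itself had a peak in all 6 libraries. The other 4 genes had peaks in some libraries. Rab19 had 1 region, with a peak in 1 library labelled NC and 3 labelled siRNA. Rab39 had 1 region, with a peak in 2 libraries labelled NC and 1 labelled siRNA, and Rab39b had 1 region, with a peak in 1 library of each label. Rab6b, the neuronal relative of the Golgi protein Rab6a, had 5 regions and a peak in 2 libraries of each label.

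No Rab gene had a peak in every library of one label and in none of the other. Among all genes, 0.123% had one in the NC-labelled libraries only and 0.0868% in the siRNA-labelled libraries only. The number of Rab genes with a peak was 54, 57 and 57 for NC-labelled libraries 1 to 3, against 56, 56 and 57 for the siRNA-labelled ones. The means were 56.0 ± 1.73 and 56.3 ± 0.577 genes (SD, n = 3 each), so the labels differed by less than the spread between libraries. Leaving out NC-labelled library 2 left 1 gene with peaks in the siRNA-labelled libraries only, which was Rab19.

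**Figure D1:**
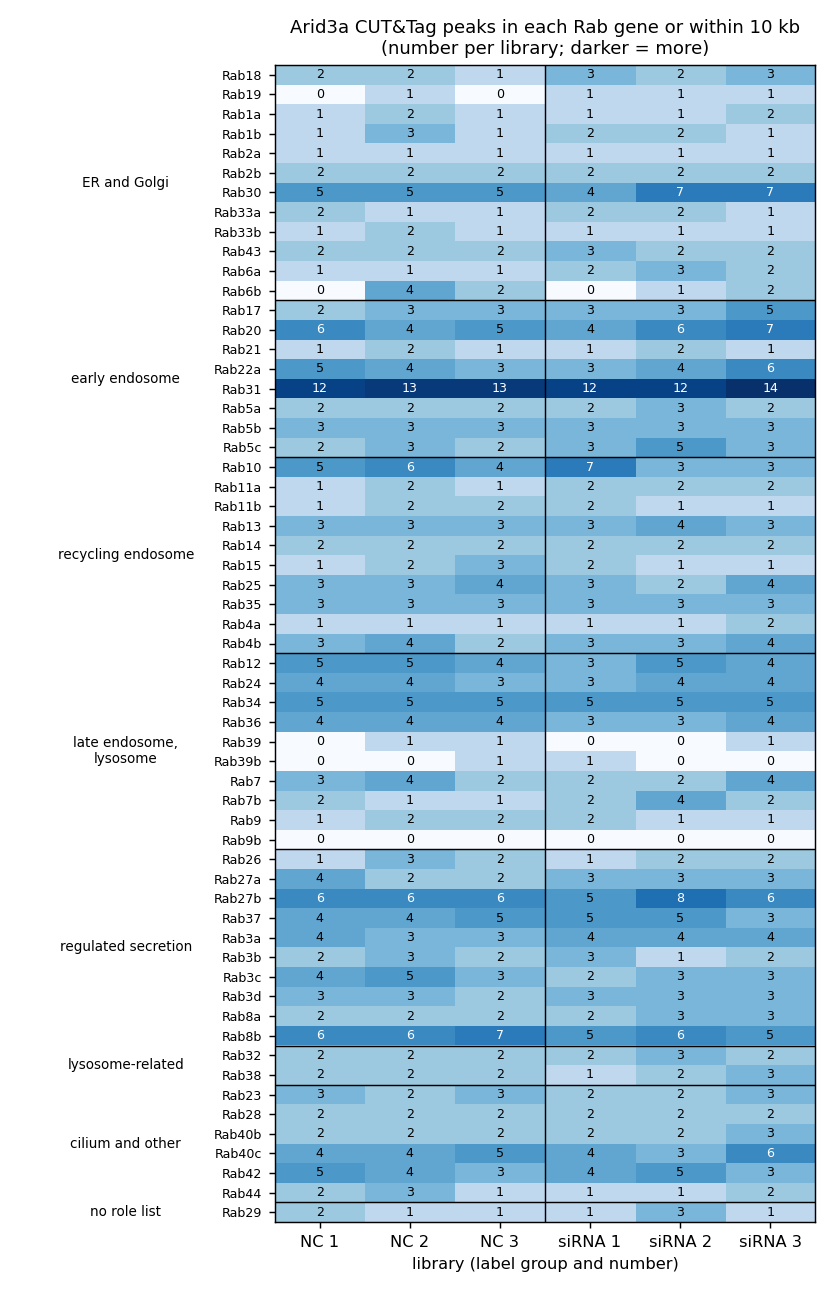
Number of Arid3a peaks in each of the 59 Rab genes or within 10 kb (rows, grouped by the compartment the protein serves), in each library (columns). Rab31 has 12 to 14 peaks in every library, Rab9b has none, and Rab19, Rab39, Rab39b and Rab6b have libraries at 0 under both labels or one.

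Whether the same region was found again differed widely between the Rab regions. Of the 246 Rab regions, 109 (44.3%) had a peak in all 6 libraries, against 37.3% of all regions and 39.2% of the regions in windows of protein-coding genes. Another 62 (25.2%) had a peak in 1 library, against 30.2% of all regions, and 75 had one in 2 to 5 libraries. The 109 regions are called shared regions here, and 51 of the 59 genes had at least 1. Rab44, Rab1b and Rab4a had a peak in every library but no region that was the same in all of them.

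Rab regions in all 6 libraries had higher peaks than those in fewer. The deposited fold is the height of a peak's summit over the local background of its own library. Its median over the Rab regions was 3.90 for those in 1 library, 4.10 for 2, 3.94 for 3, 4.74 for 4, 5.38 for 5 and 7.90 for 6, so there was no order between 1 and 3 libraries. Within its own list, a region found in 1 library stood at a median percentile of 8.15 by −log10 q, and a shared region at 76.8. The part of depth in which weak regions were called was not tested.

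**Figure D2:**
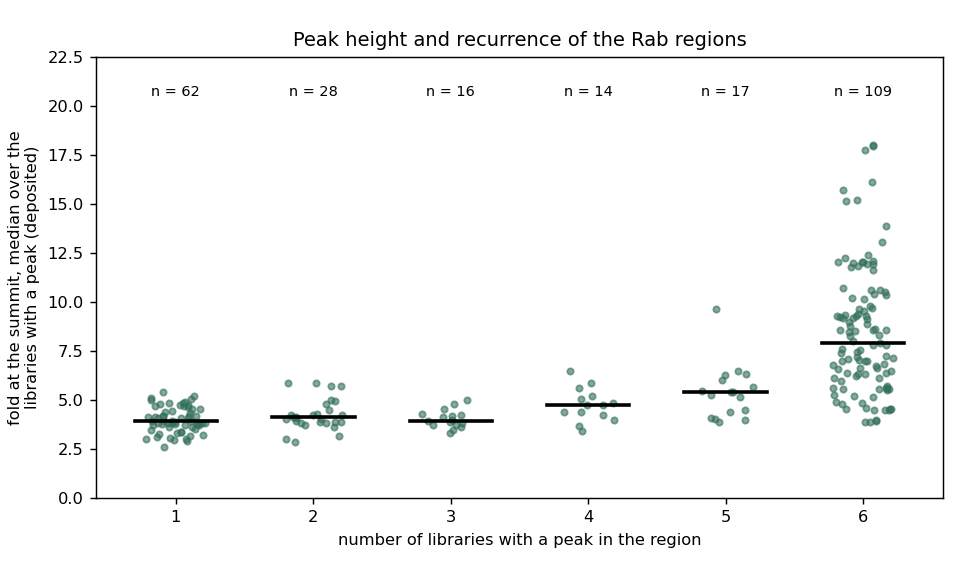
Fold at the summit of each of the 246 Rab regions (vertical axis, deposited fold, median over the libraries with a peak) against the number of libraries with a peak (horizontal axis), with 1 point per region and a bar at the median. The median is 3.90 for regions in 1 library and 7.90 for regions in 6 libraries.

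A single Rab region had a peak in every siRNA-labelled library without one under NC, against 0.342% of all regions. It lies inside Rab20, a Rab of early endosomes and phagosomes (chr8, 11465392 to 11465734). Its summit held 13, 17 and 16 fragments in siRNA-labelled libraries 1 to 3, with folds of 4.20, 5.22 and 4.23. These are low values beside the shared regions, and no such region was left when peaks were required to have a −log10 q of at least 5. No Rab region had the opposite pattern, which 0.608% of all regions had.

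By their medians, shared Rab regions were highest near gene ends. Of the 109 shared regions, 41 lay within 1000 bp of a gene end, 33 inside the gene and 35 in the flanks. The median fold at gene ends was 9.19 over NC-labelled and 9.36 over siRNA-labelled libraries. Inside the genes it was 7.27 and 7.61, and in the flanks 6.99 and 7.58. In 30 of the 51 genes the highest-ranked shared region lay at a gene end, in 10 inside the gene and in 11 in a flank.

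Many flank peaks belong to neighbourhoods with other genes. Of the 35 shared flank regions, 24 were in or within 1000 bp of another protein-coding gene, as were 10 of the 41 at gene ends. Such regions cannot be assigned to the Rab gene alone. Shared regions that touched no other gene numbered 75, in 41 Rab genes. The 2 shared regions nearest to the edge of the 10 kb window from inside were those at Rab34 (9823 bp from the gene, at Nek8 and Tlcd1) and Rab31 (9664 bp, at Ppp4r1). The nearest from outside lay 10248 bp from Rab1b, with 103, 93 and 96 summit fragments for NC against 70, 78 and 66 for siRNA, and 10355 bp from Rab5c, with 30, 37 and 27 against 22, 22 and 27.

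RefSeq starts were available for 48 of the 59 genes. At 30 of them (62.5%) a peak touched the window from 250 bases before to 50 after a start in all 6 libraries, against 41.1% of the 17491 genes of the same table. An overlap of 1 bp was enough, so a peak need not span the window. At 12 more it did so in some libraries. Rab17, Rab19, Rab25, Rab33a, Rab39 and Rab9b had none there in any library, against 46.8% of all genes. Rab17 and Rab25 are known as epithelial Rab genes, and both had shared regions in their flanks instead. Of the shared regions of genes with a known start, 35 of 93 had the summit within 1000 bp of a start, 15 of them upstream and 20 downstream, with a median distance of 137 bp in either direction.

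The start sequences printed above vary in base composition. The GC content was 63.3% at Rab5c, 58.0% at Rab5b, 51.3% at Rab11b, 61.0% at Rab14, 35.7% at Rab39b and 64.3% at Rab9b. Over the 60 start windows of the 48 Rab genes the median was 61.2%, against 56.3% over 21262 windows of all protein-coding genes. ATTAAA or ATCAAA, on either strand, was present in 6 of the 60 Rab windows (10.0%) and in 19.3% of all windows. Rab5b and Rab14 held ATTAAA, Rab11b and Rab3a held ATCAAA, and all 4 had a start peak in 6 libraries. Rab42 and Rab39b each held ATTAAA 2 times. Rab42 had a start peak in 5 libraries, and Rab39b had a start peak in 2 libraries only, with a fold of 4.93 in NC-labelled library 3 and 6.78 in siRNA-labelled library 1. Rab5c, whose start peak ranked highest by −log10 q, held neither run of letters in this window. Among all windows, 11.5% of those with a peak in 6 libraries and 26.9% of those with no peak held one of the letter runs, and the GC content of these sets was 62.3% and 49.7%. CACGTG (the same on both strands) was present in 10.0% of the Rab windows and 7.84% of all windows, and TGANTCA (either strand) in 5.00% and 6.99%.

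The early endosome group had the most shared regions, and Rab31 alone held 11 of them. Its 8 genes, which control the first steps after uptake from the surface, had 47 regions, 26 of them shared, and each gene had a peak in every library. Rab31 (also Rab22b, between the Golgi and early endosomes) had the most regions and Rab5a, a master regulator of early endosome fusion, the fewest, 15 against 2. Of all the Rab genes, Rab31 had the most regions, and its 11 shared regions were 10.1% of the 109. Among all protein-coding genes, 97 had more shared regions. The window of Rab31 measured 141 kb, against a median of 43.2 kb over the Rab genes. Per 100 kb of window, Rab31 had 7.80 shared regions, against 3.31 over the Rab windows and 2.05 over those of all protein-coding genes. The part of gene length in its number of regions was not tested.

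The highest-ranked Rab peak lay inside Rab31 (chr17, 65737352 to 65738311), 34915 bp downstream of the start. Its summit held 534, 568 and 514 fragments for NC-labelled libraries 1 to 3, against 443, 489 and 561 for the siRNA-labelled ones, and pairs of triplets joined by "against" keep this order below. The folds were 17.2, 18.1 and 17.3 against 17.8, 20.4 and 20.6, and −log10 q was 445, 486 and 430 against 376, 443 and 510. By −log10 q it was peak number 9, 11 and 9 of the NC-labelled lists and 7, 8 and 7 of the siRNA-labelled lists. It was thus among the highest-ranked peaks of the genome under both labels, and the ranges of fragments overlapped. The difference on the centred log2 scale was 0.18 ± 0.06 (SE), with an adjusted p of 0.183 (limma, Benjamini-Hochberg over all shared regions of the genome).

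The start of Rab31 carried a lower peak than the tallest ones inside the gene. The fold there was 4.37, 6.79 and 5.38 against 5.85, 6.45 and 5.19. Another region inside the gene, 68716 bp downstream of the start, had folds of 11.7, 11.7 and 10.3 against 12.2, 12.9 and 12.2. Other regions inside the gene were as low as the start, such as one 114116 bp downstream with 3.97, 4.23 and 5.11 against 5.08, 4.53 and 4.49. Of the 11 shared regions, 7 lay inside the gene, 3 in the flanks and 1 at the start, and 10 had a higher centred value in the siRNA-labelled libraries. The exception was the flank region 9664 bp from the gene at Ppp4r1, a phosphatase subunit gene.

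**Figure D3:**
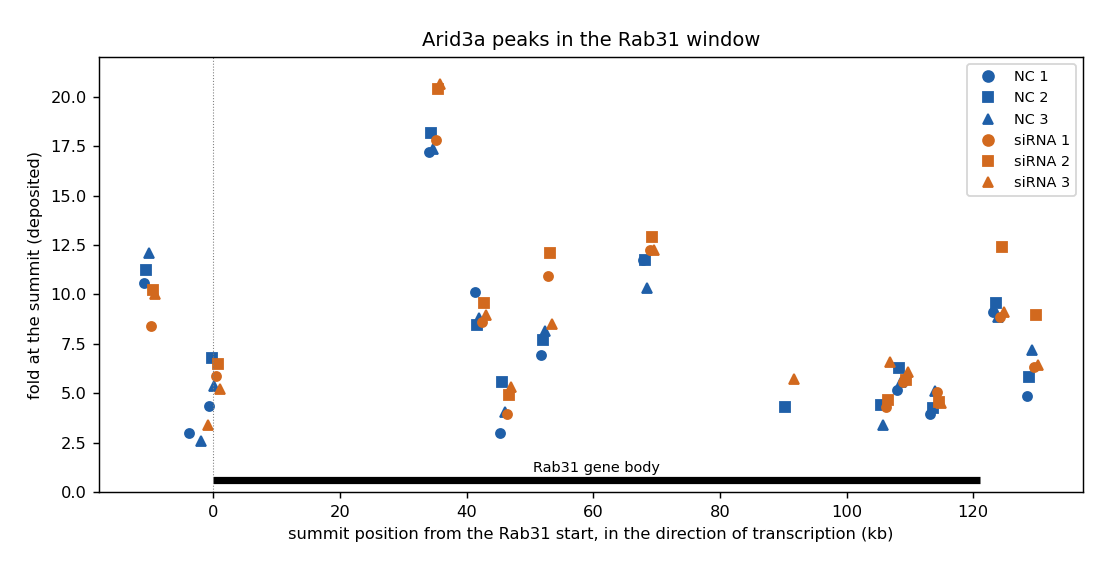
Fold at the summit (vertical axis, deposited) of every peak in the Rab31 window against its distance from the Rab31 start in kb (horizontal axis), with 1 symbol per library and the gene body as a black bar. The tallest peak lies 34.9 kb inside the gene with folds of 17.2 to 20.6, while the start carries folds of 4.37 to 6.79.

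The Rab5 genes encode closely related proteins of early endosome fusion, and their start peaks were among the 10 highest-ranked Rab regions for Rab5c and Rab5b. At the Rab5c start (chr11, 100737942 to 100738817, summit 211 bp upstream) the summit held 354, 353 and 303 fragments against 264, 354 and 347. The folds were 15.4, 16.1 and 14.7 against 15.3, 19.7 and 18.0, with siRNA-labelled library 1 inside the NC range. The Rab5b start (chr10, 128695794 to 128696826), close to Pmel, had folds of 14.9, 15.0 and 13.9 against 15.3, 15.7 and 15.4. Here all siRNA-labelled folds lay above all NC-labelled ones, while the centred fragments differed by 0.06 ± 0.09 (SE, adjusted p = 0.854, limma). Folds of that kind, every siRNA-labelled above every NC-labelled library, were found at 11 of 109 shared Rab regions, against 6.84% of all shared regions, and the reverse at 8, against 6.12%.

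At Rab5a the start peak was lower, with folds of 11.7, 10.5 and 11.5 against 12.5, 12.8 and 12.2. Rab21, which moves integrins into early endosomes, had its strongest region at its annotated start (chr10, 115315373 to 115316113, summit 196 bp upstream). Its folds of 16.0, 18.5 and 18.6 against 18.4, 17.1 and 17.1 overlapped between the labels, and the region held 131, 152 and 143 fragments against 113, 109 and 119. The log2 difference was −0.02 (adjusted p = 0.963, limma). Rab22a, a relative of Rab31, had 3 shared regions of 6, and Rab20 had 3 of 8.

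The genes of traffic between endoplasmic reticulum and Golgi had fewer shared regions. The 12 genes had 41 regions, 13 of them shared, and 10 genes had a peak in every library. Their median fold over shared regions was 9.73 under NC and 10.5 under siRNA, beside 9.04 and 8.94 for the early endosome group. Rab30, a Golgi Rab, had the most regions, 11, and Rab2a and Rab19 the fewest, 1 each. Rab1a, required for transport from the endoplasmic reticulum to the Golgi, had its peak at the start (chr11, 20200653 to 20201826, summit 297 bp upstream). It held 115, 137 and 127 fragments against 96, 97 and 113, with folds of 10.6, 12.2 and 12.0 against 14.0, 11.0 and 12.7 that overlapped.

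At the start of Rab43, a Rab of the Golgi (chr6, 87811210 to 87812577), the folds were 13.3, 13.0 and 13.1 against 11.6, 14.0 and 12.8. The single region of Rab2a, a partner of Rab1 in the early secretory pathway, had folds of 5.05, 8.0 and 7.46 against 5.62, 5.12 and 6.61. It was the only region in 92.2 kb of window, the fewest per length among the Rab genes with a peak. Rab1b, by contrast, had 5 regions in 27.8 kb and no shared one. The region at the Rab1b start had a peak in 5 libraries and missed only siRNA-labelled library 1, whose list had the fewest peaks. Its folds were 4.81, 5.59 and 5.42 under NC, and 4.32 and 5.16 in siRNA-labelled libraries 2 and 3. The close relatives Rab1a and Rab1b thus differed in whether a region was found again in every library, at the Rab1b start through that library alone.

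Recycling Rab genes return cargo from endosomes to the surface. Their 10 genes all had a peak in every library, with 37 regions, 17 of them shared, and median folds of 7.68 and 7.80. Rab10, which acts in insertion of membrane proteins, had the most regions (8) and Rab11a, the best-known marker of recycling endosomes, the fewest (1). The Rab11b start (chr17, 33759733 to 33760726, summit 31 bp downstream) held 131, 126 and 111 fragments against 89, 118 and 110, with folds of 12.1, 10.9 and 11.2 against 11.1, 14.0 and 12.2. At the Rab11a start the folds were 6.75, 7.57 and 7.09 against 7.79, 6.55 and 7.66. The start of Rab10 had folds of 10.8, 10.7 and 10.2 against 10.4, 12.2 and 12.3. The highest-ranked region of Rab35 (chr5, 115652557 to 115653293) lay 5399 bp from the gene at Bicdl1, with 142, 168 and 152 fragments against 111, 136 and 147.

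Genes of late endosomes, lysosomes and autophagosomes had a peak in every library at 7 of 10 genes, with 17 shared regions among 34. The median fold over their shared regions was the lowest of the larger groups, 6.52 under NC and 7.01 under siRNA. Rab36 had the most regions, 7, in a window of 37.9 kb, and Rab9b none. Rab7, the main Rab of late endosomes and lysosomes, had a start peak with folds of 6.41, 7.93 and 6.88 against 6.23, 7.57 and 7.71. The highest-ranked region of the group by −log10 q was the one near Rab34 at Nek8 and Tlcd1 (chr11, 78176957 to 78178604), with 275, 285 and 245 fragments against 198, 164 and 209. Its folds were 8.70, 9.15 and 9.35 against 8.41, 7.32 and 8.36, so the labels did not overlap. By fold, a region inside Rab12 was higher in 5 of 6 libraries, with 9.47, 9.17 and 8.63 against 10.1, 8.49 and 9.46. At the start of Rab34 itself, a Rab of lysosome positioning and cilia, the folds were 6.52, 7.72 and 6.98 against 8.08, 8.78 and 8.96, which did not overlap either and went the other way.

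Secretion Rab genes, which dock secretory vesicles at the surface, had 54 regions in 10 genes, 21 of them shared, and each gene had a peak in every library. Rab27b, which docks secretory granules and exosomes, had the most regions (9), and Rab26 and Rab3d, of secretory granules, the fewest (3 each). One region inside Rab27b had folds of 15.3, 20.7 and 17.1 against 17.3, 21.0 and 18.6, and it held 78, 105 and 85 fragments against 79, 92 and 85. Those were the highest folds of any Rab region in NC-labelled library 2 and siRNA-labelled library 2, on fewer fragments than at Rab31. Rab3a, best known from synaptic vesicles, had folds at its start of 10.5, 10.5 and 9.99 against 7.32, 13.1 and 12.0, with siRNA-labelled library 1 below all others. Rab8a and Rab8b, which act in exocytosis and cilium growth, had 2 and 4 shared regions.

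Among the remaining genes, Rab40c of the group of cilium and other functions had the third-ranked region of all the Rab genes. Rab40c is a Rab with a domain that recruits ubiquitin ligases. Its start region (chr17, 25919375 to 25920720, summit 683 bp upstream) held 263, 258 and 264 fragments against 213, 179 and 212. The folds of 12.1, 12.0 and 12.5 against 13.5, 11.1 and 11.2 overlapped. Rab42 had the most regions of this group (6) and Rab28 the fewest (2). Rab32 and Rab38, which build melanosomes and other lysosome-related organelles, had 3 regions each, and a region inside Rab38 had folds of 12.0, 11.8 and 13.6 against 12.0, 12.7 and 11.6. Per 100 kb of window, Rab42 (26.1 regions), Rab34 (21.0), Rab25 (19.0), Rab36 (18.5) and Rab1b (18.0) were densest. Those are short genes, whose windows consist mainly of flanks.

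**Figure D4:**
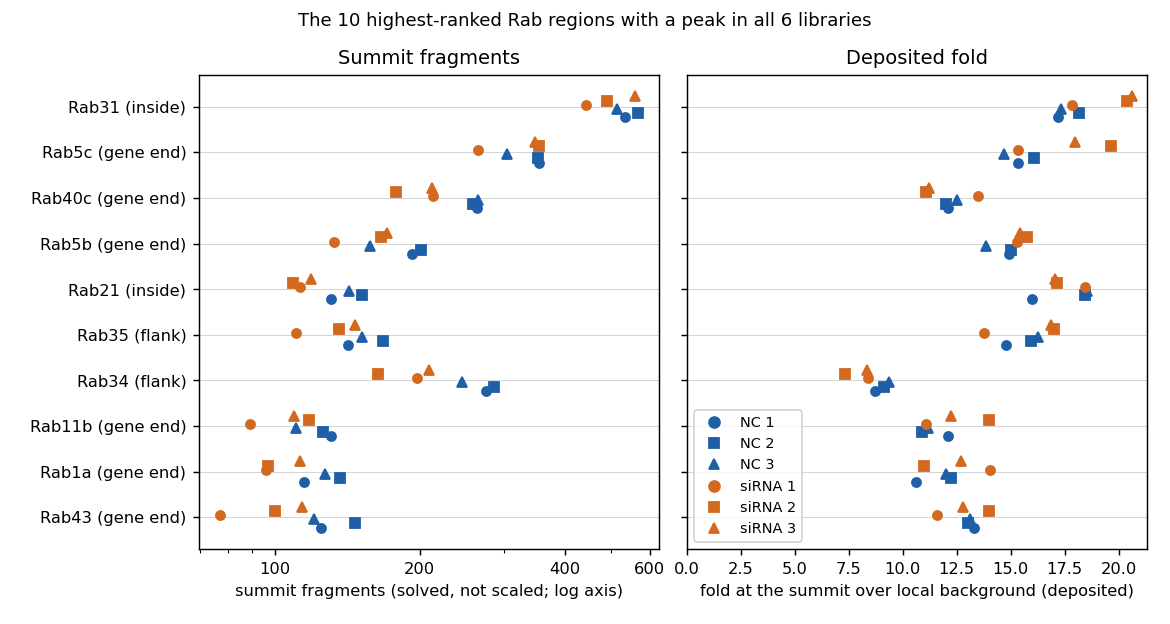
Summit fragments (left, log axis, not scaled for depth) and deposited fold at the summit (right, axis from 0) of the 10 highest-ranked shared Rab regions, with 1 symbol per library. Rab31 is highest with 443 to 568 fragments. Before scaling, the fragments at Rab40c, Rab21, Rab34, Rab1a and Rab43 are lower in every siRNA-labelled than in any NC-labelled library. Over all shared regions the unscaled medians also differ, 29, 30 and 28 under NC against 21, 24 and 26 under siRNA. The share of all shared regions with unscaled fragments lower in every siRNA-labelled library was not counted.

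The comparison of the labels asked whether Arid3a signal at shared Rab regions differed between them. For centring, log2 summit fragments were set against each region's mean over the libraries. Each library's median of these log2 ratios, over the 29602 regions with a peak in all 6 libraries, was then subtracted. The limma fit was made over these regions. A region that lost its peaks under 1 label was not in this fit and could not be called. Centring also removed any change of the same size at all regions. None of the 109 Rab regions passed an adjusted p of 0.05 in either direction. Over all regions, 0.0912% were higher and 0.122% lower in the siRNA-labelled libraries. The smallest adjusted p of a Rab region was 0.175. At an unadjusted p under 0.05 there were 17 Rab regions (15.6%) in 13 genes, against 11.3% of all regions. Of these, 10 were higher, against 5.42% of all regions, and 7 lower, against 5.89%. With the deposited fold in place of the fragments, limma called 0 regions over the genome, and 5 Rab regions (4.59%) had an unadjusted p under 0.05, against 7.37% of all. With siRNA-labelled libraries 2 and 3 averaged as 1 sample, 9.17% of the Rab regions and 9.59% of all did. Under every other setting the share at Rab regions was above that of all regions. The gap ranged widely, for example 17.4% against 11.9% with the replicate block and 13.8% against 13.4% with scaling by background. The shares were not tested against each other.

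The differences at Rab regions ran from −0.60 to 0.72 on the log2 scale, with a median standard error of 0.18. Their median was 0.04, against −0.00081 over all shared regions, and 61 were above 0 and 48 below. Of the 11 shared regions of Rab31, in the early endosome group, 10 were above 0. By compartment the median was 0.07 for early endosome genes, 0.10 for the endoplasmic reticulum and Golgi, 0.04 for late endosomes and lysosomes, −0.03 for recycling, 0.03 for secretion and −0.12 for cilium and other functions. In simulated data with 2-fold changes, 85.0% of the changed regions were called. The simulated fragments varied only by Poisson counting noise, without further variation between libraries. The 85.0% therefore does not show how often such a change would be called in these libraries.

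The smallest p-values in the higher direction were at Rab31, Rab5c and Rab8b. A region inside Rab31, 52625 bp downstream of the start, held 24, 28 and 29 fragments against 32, 38 and 29. It differed by 0.58 ± 0.19 (SE) on the log2 scale, with an adjusted p of 0.175 (limma). The start of Rab5c, with its fragments as given above, differed by 0.22 ± 0.07 (adjusted p = 0.181, limma). Inside Rab8b, 45335 bp downstream of the start, a region held 12, 18 and 15 fragments against 14, 20 and 28 and differed by 0.72 ± 0.24 (adjusted p = 0.183, limma). Before centring, the groups overlapped at the regions of Rab5c and Rab8b and touched at 29 fragments at the region of Rab31.

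In the lower direction they were at Rab31, Rab34 and Rab3c. The flank region of Rab31 at Ppp4r1 held 71, 82 and 75 fragments against 36, 52 and 56, which did not overlap, and differed by −0.39 ± 0.14 (SE, adjusted p = 0.236, limma). The region near Rab34 at Nek8 and Tlcd1 differed by −0.20 ± 0.09 (adjusted p = 0.333, limma). A region inside Rab3c, a Rab3 of regulated exocytosis, held 25, 17 and 28 fragments against 9, 17 and 13 and differed by −0.56 ± 0.24 (adjusted p = 0.358, limma). The fragments printed here are not scaled for depth, while the log2 differences are centred.

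A single library decided whether any Rab region passed. That was siRNA-labelled library 1, which had the fewest peaks and was also the only library of si-Arid3a#1. Library and siRNA cannot be told apart here. Without it, limma called the Rab5c start (log2 difference 0.29, adjusted p = 0.0108) and the region inside Rab8b (0.90, adjusted p = 0.0473) as higher. The region near Rab34 (−0.31, adjusted p = 0.0321, limma) was called lower. In that fit the calls over the whole genome also rose, to 157 higher and 221 lower. Without any other single library, limma called 0 Rab regions.

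**Figure D5:**
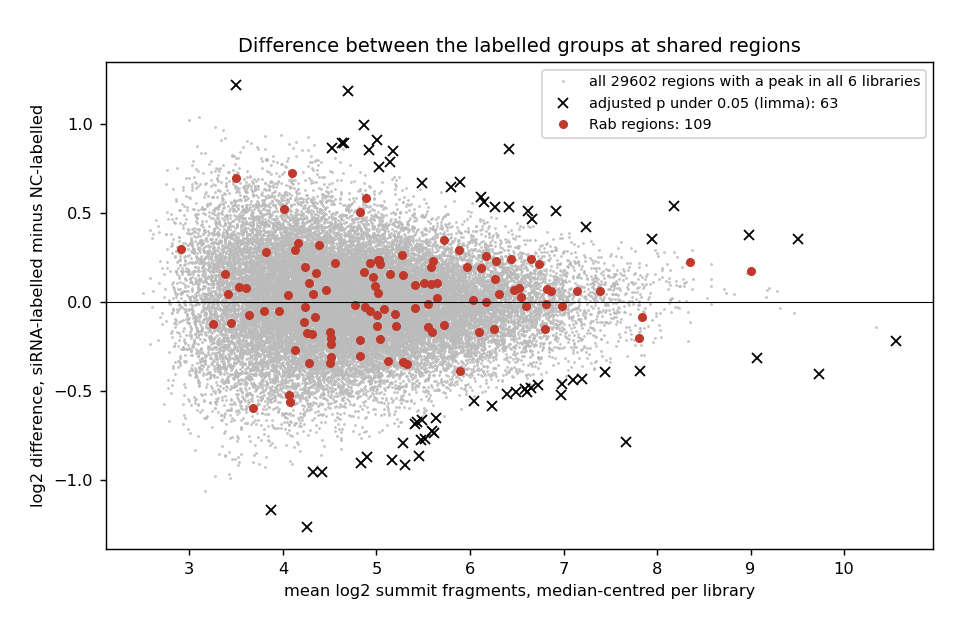
Log2 difference between siRNA-labelled and NC-labelled libraries (vertical axis) against the mean log2 summit fragments (horizontal axis), both from median-centred values, for all 29602 shared regions (grey), those past the adjusted threshold in limma (crosses) and the 109 Rab regions (red). The Rab regions lie between −0.60 and 0.72 and none of them is marked by a cross.

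The genes that serve the Rab cycle were read in the same way. Of 114 regulators and effectors, 105 (92.1%) had a peak in every library, beside the 64.0% of all genes, in windows with a median of 72.3 kb against 37.2 kb. Among them were 7 of 8 genes of prenylation and membrane extraction, 30 of 33 exchange factors, 31 of 32 GTPase-activating proteins and 37 of 41 effectors. Chm, the escort protein that presents Rab proteins for prenylation, had a peak in 1 siRNA-labelled library only, while its relative Chml had one in every library. Sytl4, a Rab27 effector, had none. Of their 276 shared regions, 1 passed in limma, at the Rab5 effector gene Appl2, higher by 0.91 on the log2 scale under siRNA (adjusted p = 0.0148), and 0 were lower, beside 0.0912% higher and 0.122% lower over all regions.

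Peaks at a related GTPase family were counted for comparison. A peak in every library was found at 26 of 29 Arf and Arl genes (89.7%), which act in vesicle budding. The share was not tested against that of the Rab genes. The median log2 difference over shared regions was 0.07 for the Arf and Arl genes and 0.05 for the Rab regulators and effectors, beside 0.04 for the Rab genes.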

How the data were processed

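The tools Bowtie2, Picard and MACS2 and the build mm10 are named, per the submitters' processing notes, without versions. For each library the authors deposited 1 peak list with intervals, a whole-number score, fold at the summit (a ratio), −log10 p and q, and a summit offset (other value). Peak values are the authors'. Score was not used, and −log10 q only ranked or filtered peaks within a list.

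Fold and −log10 p together fix whole summit fragments and a local background (pseudocount 1), solved for 100.0% of peaks within a relative tolerance of 0.002. Gene spans and starts came from RefSeq, GRCm38.p6. limma 3.58.1 (trend) was fitted to median-centred log2 fragments, two-sided, without a replicate term, and tested on simulated data. R 4.3.3 and Python 3.11.15 were used.

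Members, role lists and tests were chosen with earlier results of these data known. Named regions are the 10 highest by their lowest percentile of −log10 q, those in 1 label only, the 3 smallest p in each direction, and the 10 highest at gene ends. Named genes are those without peaks, the most and fewest regions in each group, and the 5 densest. Other regions named, such as those in Rab27b, Rab38, Rab7, Rab3a, Rab11a and Rab14, were chosen after their values were seen. Alternatives covered peak strength, window, scaling, filters, a merged sample and each library left out. Knockdown was not tested.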

Additional observations from a re-analysis of the deposited data

Results flagged for a closer look

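In 6 of 6 peak lists the peak names carried the name of the other label with the same replicate number. The names were not used in any comparison. The groups follow the sample labels, and if the names were right, every direction at the Rab regions would turn round. Which of them is right was not tested.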

How the results depend on the processing

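Across the alternatives, 98 values of the main results stayed within their limits and 16 moved. At the 18 named Rab regions 211 of 214 values stayed on their side of the threshold, and 3 became calls, those without siRNA-labelled library 1 given above. The sign changed in 24 of the 214, at 8 regions whose difference was at most 0.087 in size, and none of these was a call. Keeping only peaks whose −log10 q reached 5, the Rab regions present in 1 label only were 3 for NC and 0 for siRNA, in place of 0 and 1. With single libraries left out, they ranged from 1 to 2 for NC and 1 to 4 for siRNA, the Rab genes for siRNA only from 0 to 1, and the limma calls from 0 to 2 higher and 0 to 1 lower. Scaling by background in place of the median gave a median log2 difference of 0.141 over the Rab regions and 0.098 over all shared regions, with 70 higher and 8 lower calls over the genome in place of 27 and 36. With the replicate block, limma made 0 higher and 0 lower Rab calls, 55 higher and 77 lower over the genome, and the median stayed at 0.0426. The mean number of Rab genes with a peak, NC minus siRNA, was −0.333, the same with the replicate block, 0.667 without NC-labelled library 1 and 0 with gene ends only or without siRNA-labelled library 3. Same-numbered libraries correlated at 0.0405, 0.0316 and −0.0209 in their deviations from group means. Differently numbered pairs across the labels ran from −0.0731 to 0.0472. With 3 libraries per group, these values cannot show whether same-numbered libraries shared a culture or a batch. The Rab regions tested had median summits of 28 to 41 fragments per library. In data simulated with Poisson counting noise only, 85.0% of 2-fold and 100% of 4-fold changes were called.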
